A study of Mus musculus with 9 samples.

Results

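A set of 9 adhesion genes was followed in the striatum of mice with normal, reduced or no intact *Shank3*. They are the neurexins *Nrxn2* and *Nrxn3*, the neurexin-related *Cntnap2*, the neuroligins *Nlgn1*, *Nlgn2* and *Nlgn3*, the leucine-rich repeat proteins *Lrrtm1* and *Lrrtm2*, and *Il1rapl1*. Members were chosen by symbol, as the rows whose Ensembl identifier maps to those names, and all 9 were found among the 15464 genes of the table. All 9 also passed the filter on low values (10 or more normalized counts in 3 or more libraries), as did 14239 genes in all.

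Striatal RNA came from 9 adult male mice on the C57BL/6J background, aged 10 to 12 weeks, with 1 library per mouse and 3 mice per genotype. WT mice carried no targeted allele. HET mice carried 1 intact copy of *Shank3* and a targeted copy of the *Shank3B* line, in which exons coding for the PDZ domain are targeted, and KO mice carried no intact copy. The animals were littermates. The unit throughout is the normalized count, which the authors obtained by dividing estimated counts per gene by a size factor for each library. Normalized counts added up to 30830020 to 33790296 per library. Such totals are set by the normalization and do not give the read depth, which is unknown, so precision comes from the spread between mice.

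Neurexins sit in the presynaptic membrane and reach across the cleft to several unrelated families of postsynaptic partners. Neuroligins and the LRRTM proteins are such partners, and their intracellular tails bind scaffolds of the postsynaptic density. Shank3 lies deeper in the same excitatory scaffold and is connected to neuroligins through PSD-95 and its binding proteins. Each neurexin gene has separate promoters for long and short forms and is spliced extensively. The values are sums over a whole gene, so long and short neurexins and their splice forms were not separated here.

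*Shank3* (ENSMUSG00000022623, chromosome 15, 89499623 to 89560261 on the plus strand of GRCm38) had 7209, 8812 and 6043 normalized counts in the WT libraries. The HET libraries had 7575, 7098 and 8050, and the KO libraries 10237, 10798 and 10578. All KO values lay above all WT and HET values, while WT and HET overlapped. The log2FC in KO against WT was 0.54 (95% interval 0.25 to 0.82), and by unadjusted p in limma *Shank3* ranked 5 of 14239 genes, with an adjusted p of 0.999. The log2FC in KO against HET was 0.48 (0.19 to 0.77). A sum over the gene also reads the exons that are not targeted, so it does not check the genotype labels.

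The libraries differed in markers of striatal cells. The 9 markers of striatal projection neurons summed to 132544, 149126 and 74906 normalized counts in WT, to 132488, 103208 and 112799 in HET and to 110720, 95290 and 65471 in KO. WT library 3 and KO library 3 were the lowest. *Pde10a*, the most abundant of these markers, had 20026 normalized counts in WT library 3 and 19599 in KO library 3, against 36309 and 39151 in the other WT libraries. All 9 projection neuron markers had a negative log2FC in KO against WT, with a median of −0.36, and in KO against HET, with a median of −0.38, while 5 were positive and 4 negative in HET against WT. Of the 9, 0 passed an unadjusted p of 0.05 in limma in any of these comparisons. These fits did not use the replicate number, and the KO sum lay below the HET sum at each number. Each of the 9 markers was above 0 in every library. The same held for the markers of other cell types below, so this does not identify the tissue.

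Markers of cortical excitatory neurons (5 genes, led by *Slc17a7* with a mean of 34116 normalized counts) summed to 38495, 41506 and 49905 in WT, to 33208, 47082 and 42165 in HET and to 37124, 41964 and 54485 in KO. The highest sums were again those of WT library 3 and KO library 3. The 4 oligodendrocyte markers, led by *Mobp*, were lower in WT library 1, WT library 2 and KO library 3 (45042, 43686 and 40029) than in the other libraries (60812 to 74370). Sums of the 6 interneuron markers, led by *Sst*, lay between 7396 and 9404. Those of the 5 thalamic and septal markers, led by *Zic1*, were 2638 in WT library 3 and 2595 in KO library 2, against 1131 to 1448 in the other 7 libraries. Astrocyte markers (5 genes, led by *Slc1a3*) summed to 26082 to 31854, microglial markers (5 genes, led by *Csf1r*) to 7742 to 8679, and endothelial markers (4 genes, led by *Flt1*) to 4119 to 4986. The 5 choroid plexus markers, led by *Clic6*, were lowest in library 3 of each genotype, with sums of 166 in WT, 142 in HET and 151 in KO, against 246 to 295 in the other libraries. The part of these markers in the values of the adhesion genes was not tested. No marker in these lists was at 0 in any library. In HET against WT all 4 oligodendrocyte markers (median log2FC 0.35) and all 4 endothelial markers (0.22) were positive. In KO against HET all 4 oligodendrocyte (−0.31), all 4 endothelial (−0.19) and all 5 microglial markers (−0.047) were negative and all 5 cortical ones positive (0.13). Of the 47 markers tested, *Prkcd* alone passed an unadjusted p of 0.05 in limma, with a log2FC of 0.38 in KO against WT and 0.37 in KO against HET, and it was named after its values were seen. In HET against WT 0 of 47 passed. Over all genes tested the shares were 0.822% in KO against WT, 1.31% in KO against HET and 1.11% in HET against WT, so 1 or 0 of 47 is near the background. In bulk RNA, fewer cells of a type and less RNA per cell cannot be told apart.

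Levels of the 9 adhesion genes were compared per kilobase of merged exons. In WT, *Nlgn2* was the highest with 1818 ± 167 normalized counts per kb (SD, n = 3), followed by *Nrxn2* with 933 ± 227 and *Nrxn3* with 725 ± 51.9. *Lrrtm1* followed with 565 ± 75.3, *Nlgn3* with 439 ± 45.1, *Lrrtm2* with 329 ± 24.9 and *Cntnap2* with 291 ± 50.5. *Nlgn1* had 160 ± 15.6 and *Il1rapl1*, the lowest, 49.5 ± 4.64. The highest and lowest places were clear of their neighbours: *Nlgn2* exceeded *Nrxn2* and *Nlgn1* exceeded *Il1rapl1* in 9 of 9 libraries. *Nrxn2* exceeded *Nrxn3* in 6 of 9 libraries and *Lrrtm2* exceeded *Cntnap2* in 7 of 9, and the WT ranges of each of these pairs overlapped, so their order was not beyond the spread between mice. The length used matters for *Nrxn2*, whose merged exons span 13812 bases against 6667 in its longest transcript. Per kb of the longest transcript it had 1933 in WT and *Nlgn2* 1889.

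**Figure D1:**
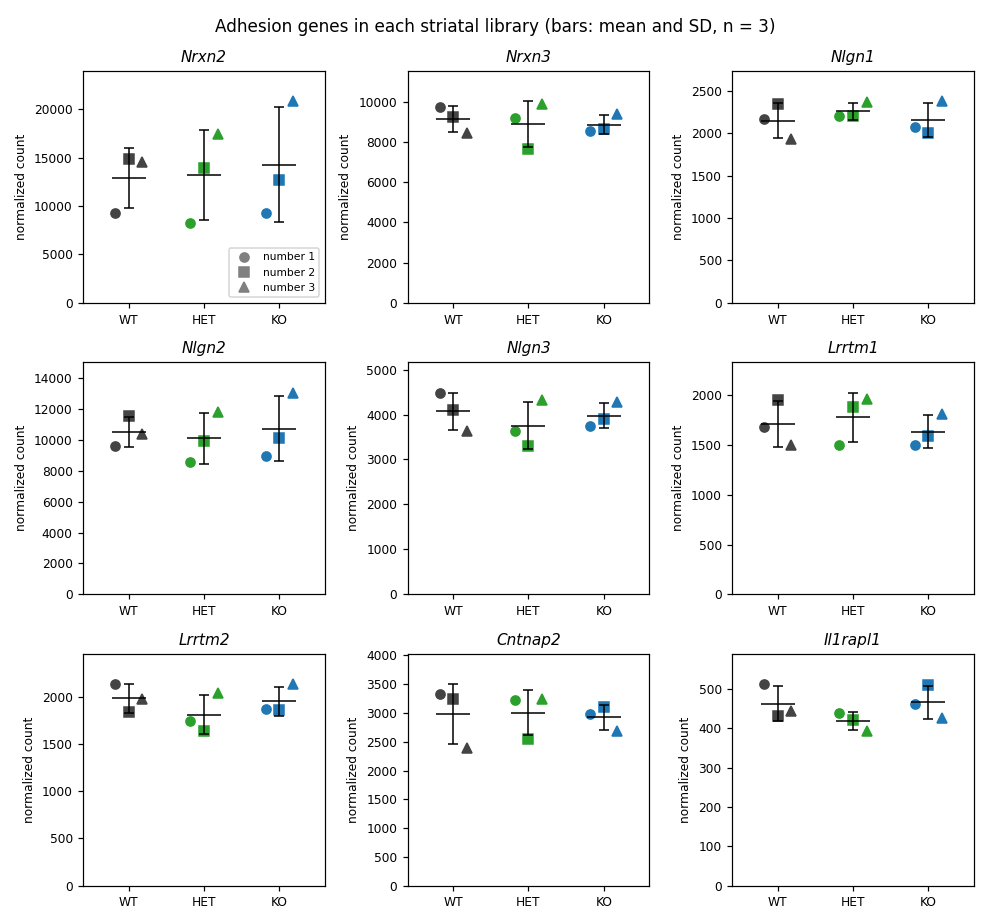
Normalized counts of the 9 adhesion genes in each library, with genotype on the horizontal axis, marker shape for the replicate number, and bars for the mean and SD (n = 3). WT, HET and KO overlap in every panel, and *Nrxn2* spreads most, from 8288 to 20830.

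*Nrxn2* (ENSMUSG00000033768, chromosome 19, 6418731 to 6544169, plus strand) encodes a presynaptic neurexin. It had 9271, 14861 and 14538 normalized counts in WT, 8288, 13913 and 17461 in HET and 9306, 12697 and 20830 in KO. The number 1 library was the lowest of each genotype, and HET library 3 and KO library 3 were the highest of all. The genotypes overlapped, and the range within KO was wider than any difference between group means. The log2FC was 0.0025 in HET against WT (95% interval −0.74 to 0.74) and 0.10 in KO against WT (−0.64 to 0.84). These intervals leave room for a level in KO between 0.640 and 1.79 times that in WT, so a p that misses the threshold does not show that *Nrxn2* was unaltered. The fit did not use the replicate number, so any difference between numbers that the genotypes share is part of the width of these intervals. Without KO library 3 the KO value was −0.21, in the other direction, and without WT library 1 it was −0.12.

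*Nrxn3* (ENSMUSG00000066392, chromosome 12, 88722876 to 90334935, plus strand), another presynaptic neurexin, varied far less. The WT libraries had 9737, 9247 and 8442 normalized counts, the HET libraries 9182, 7648 and 9855 and the KO libraries 8527, 8643 and 9378. HET library 2 was the lowest and HET library 3 the highest, so HET alone spanned the whole range. The log2FC was −0.045 in HET (95% interval −0.29 to 0.20) and −0.046 in KO (−0.29 to 0.20), both against the same WT libraries. Exact two-sided permutation tests gave p = 0.8 and p = 0.7, where 0.1 is the smallest that 3 mice against 3 allow.

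*Cntnap2* (ENSMUSG00000039419, chromosome 6, 45059357 to 47304213, plus strand) encodes Caspr2, a neurexin relative that gathers potassium channels beside the nodes of Ranvier. It had 3326, 3243 and 2390 normalized counts in WT, 3226, 2554 and 3241 in HET and 2986, 3099 and 2688 in KO. The lowest libraries were WT 3, HET 2 and KO 3, and the genotypes overlapped. WT library 3 and KO library 3 also held the lowest sums of projection neuron markers given above, whose part in the *Cntnap2* values was not tested. The log2FC was 0.017 in HET (95% interval −0.30 to 0.34) and −0.017 in KO (−0.34 to 0.30). Without WT library 3 the HET value was −0.14, in the other direction.

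*Nlgn1* (ENSMUSG00000063887, chromosome 3, 25426215 to 26332460, minus strand) encodes the neuroligin of excitatory synapses. The WT libraries had 2171, 2346 and 1928 normalized counts, the HET libraries 2204, 2198 and 2373 and the KO libraries 2077, 2002 and 2378. WT library 3 was the lowest and KO library 3 the highest, with overlap between all genotypes. The log2FC was 0.076 in HET (95% interval −0.15 to 0.30) and 0.0034 in KO (−0.23 to 0.23). Without WT library 3 the HET value was 0.00011 and the KO value −0.072, the latter in the other direction. Without WT library 2 they were 0.14 and 0.069. In fold terms the KO interval ran from 0.855 to 1.17.

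*Nlgn2* (ENSMUSG00000051790, chromosome 11, 69823122 to 69837784, minus strand) encodes the neuroligin of inhibitory synapses, which are the main kind that projection neurons make on each other. It had 9622, 11544 and 10392 normalized counts in WT, 8588, 9904 and 11829 in HET and 8953, 10162 and 13076 in KO. As for *Nrxn2*, library 1 was the lowest in each genotype and KO library 3 the highest of all. The log2FC was −0.066 in HET (95% interval −0.42 to 0.29) and 0.014 in KO (−0.34 to 0.37). Without KO library 3 the KO value was −0.14, in the other direction.

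*Nlgn3* (ENSMUSG00000031302, X chromosome, 101299168 to 101325963, plus strand) encodes a neuroligin found at excitatory and inhibitory synapses. It had 4469, 4109 and 3636 normalized counts in WT, 3635, 3293 and 4321 in HET and 3741, 3899 and 4281 in KO. HET library 2 was the lowest and WT library 1 the highest, and the groups overlapped. The log2FC was −0.12 in HET (95% interval −0.39 to 0.15, exact two-sided permutation p = 0.4) and −0.032 in KO (−0.30 to 0.24, p = 0.8). Without HET library 2 the HET value was −0.034, and without WT library 1 it was −0.053. Without HET library 3 it was −0.23, with an unadjusted p of 0.069 in limma. Taking KO library 3 out as well does not move that difference, but its unadjusted p was then 0.048, with an adjusted p of 1.00.

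Among the neuroligin genes, *Nlgn2* made up 75.2 ± 2.67% of the level per kb in WT (SD, n = 3), 75.2 ± 2.14% in HET and 75.7 ± 2.24% in KO. *Nlgn3* made up 18.2 ± 2.31%, 17.5 ± 1.65% and 17.7 ± 1.65%, and *Nlgn1* 6.62 ± 0.429%, 7.32 ± 0.734% and 6.62 ± 0.644%. The ratio of the excitatory to the inhibitory neuroligin was also taken within each library, after the data had been seen. Log2 *Nlgn1* over *Nlgn2*, from counts not scaled by length, was −2.15, −2.30 and −2.43 in WT, −1.96, −2.17 and −2.32 in HET and −2.11, −2.34 and −2.46 in KO. Library 1 had the highest ratio and library 3 the lowest in every genotype. The mean difference was 0.14 in HET against WT, −0.011 in KO against WT and −0.15 in KO against HET. Exact two-sided permutation tests gave p = 0.5, 0.9 and 0.4 (0.75, 0.9 and 0.75 after Benjamini-Hochberg adjustment over these 3 comparisons). As groups of separate mice, none of the 3 differences was larger than the spread between mice. Same-numbered HET and KO libraries varied together over all genes, so KO against HET was also taken within these pairs. The differences were −0.15, −0.17 and −0.14 for numbers 1, 2 and 3, with a mean of −0.15 and an SD of 0.017. All 3 had the same sign and lay close together. An exact sign test over the pairs gave p = 0.25, the smallest that 3 pairs allow. At each number the HET ratio also lay above the WT ratio. The KO ratio lay above the WT ratio at number 1 and below it at numbers 2 and 3. Differences from WT within numbers were not tested.

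*Lrrtm1* (ENSMUSG00000060780, chromosome 6, 77242689 to 77257791, plus strand) encodes a postsynaptic ligand of neurexins at excitatory synapses. The WT libraries had 1687, 1954 and 1500 normalized counts, the HET libraries 1500, 1883 and 1963 and the KO libraries 1499, 1591 and 1817. WT library 3, HET library 1 and KO library 1 were alike and the lowest. The log2FC was 0.055 in HET (95% interval −0.25 to 0.36) and −0.064 in KO (−0.37 to 0.24). Without WT library 3 the HET value was −0.037, in the other direction.

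*Lrrtm2* (ENSMUSG00000071862, chromosome 18, 35209003 to 35215024, minus strand), a close relative with the same kind of partners, had 2132, 1833 and 1978 normalized counts in WT, 1744, 1639 and 2037 in HET and 1869, 1855 and 2129 in KO. HET libraries 1 and 2 were the lowest of the 9, while HET library 3 lay among the WT values. The log2FC was −0.14 in HET (95% interval −0.38 to 0.11, exact two-sided permutation p = 0.3) and −0.022 in KO (−0.26 to 0.22, p = 0.9). Without HET library 2 the HET value was −0.069, and without WT library 1 it was −0.081. Without HET library 3 it was −0.23, with an unadjusted p of 0.057 in limma. With KO library 3 also out the difference was the same and its unadjusted p 0.030 (adjusted p 1.00).

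*Il1rapl1* (ENSMUSG00000052372, X chromosome, 86740870 to 88115645, minus strand) encodes a postsynaptic receptor-like protein that binds the presynaptic phosphatase PTPδ, not a neurexin. It had 512, 431 and 443 normalized counts in WT, 438, 421 and 393 in HET and 462, 509 and 425 in KO. HET library 3 was the lowest of all and HET library 2 the next, while HET library 1 lay within the WT and KO ranges. The log2FC was −0.14 in HET against WT (95% interval −0.41 to 0.12), 0.011 in KO against WT (−0.25 to 0.27) and 0.15 in KO against HET (−0.11 to 0.42). Exact two-sided permutation tests, which do not use replicate numbers, gave p = 0.2, 1.0 and 0.2. KO lay above HET in each same-numbered pair. The HET against WT value kept its sign in all 24 alternative settings and ranged from −0.19 to −0.069. The KO against HET value also kept its sign, from 0.088 to 0.22. The KO against WT value ranged from −0.056 to 0.086 and changed sign in 3 settings.

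**Figure D2:**
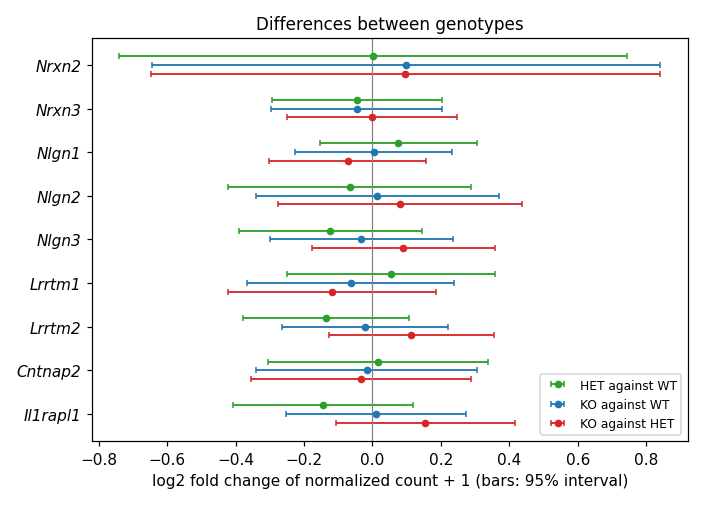
Log2 fold change of each adhesion gene on the scale of log2(normalized count + 1), with 95% intervals from limma over 9 libraries, for HET against WT, KO against WT and KO against HET. All 27 intervals include 0, and the widest are those of *Nrxn2*.

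In HET against WT, 0 of the 9 adhesion genes passed the adjusted threshold of 0.05 in limma (Benjamini-Hochberg method), against 0.0% of the 14239 genes tested. At an unadjusted p under 0.05 the counts were 0 of 9 and 158 of 14239 (1.11%). In 0 of 9 did HET and WT libraries not overlap, against 4.45% of all genes. In KO against WT, the adjusted count was 0 of 9 (0.0% of all genes), the unadjusted count 0 of 9 (0.822% of all genes, 117 genes), and 0 of 9 had groups that did not overlap (4.54% of all genes). In KO against HET, the same counts were 0 of 9 (0.0%), 0 of 9 (1.31%, 186 genes) and 0 of 9 (4.45%). With shares this low over all genes, a count of 0 among 9 is near the background and is not a result about these genes.

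The median log2FC of the 9 genes was −0.045 in HET against WT, −0.017 in KO against WT and 0.081 in KO against HET. Over all genes tested the medians were −0.0027, 0.0047 and −0.00099. In HET against WT 4 of the 9 values were positive and 5 negative, and the split was the same in KO against WT. HET and KO were compared with the same WT libraries, so their values are not independent. Replicate numbers pair HET with KO libraries, and with the number as a block in a fit of these 2 genotypes alone, KO against HET gave 705 genes (4.95% of 14239) at an unadjusted p under 0.05 instead of 186, still with 0 of the 9 adhesion genes and 0 genes at an adjusted p under 0.05.

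The spread between mice of the same genotype differed among the genes. The pooled SD of log2(normalized count + 1) was 0.51 for *Nrxn2*, above 92.9% of the genes tested, and 0.22 for *Nlgn2*, above 59.3%. It lay between 0.12 and 0.20 for the other 7, and the median over all genes tested was 0.19. The highest of the 9 libraries exceeded the lowest 2.51-fold for *Nrxn2* and 1.52-fold for *Nlgn2*, and 1.23-fold to 1.39-fold for the other 7.

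*Nrxn2* and *Nlgn2* varied together across the libraries. Over the 9 libraries, Pearson's r of log2(normalized count + 1) was 0.94 and Spearman's rho 0.97. Same-numbered HET and KO libraries varied together over all genes, so the 9 libraries are not independent and these correlations are given as a description, with no test. Without WT 1 and HET 1, the 2 libraries farthest from the *Nrxn2* median on the log2 scale, r was 0.95. Without HET 1 and KO 3, the farthest in normalized counts, it was 0.88, and within the 6 libraries numbered 2 and 3 it was 0.93. *Nrxn3* and *Nlgn3* had r = 0.90 and rho = 0.88. Without WT 3 and HET 2, the libraries farthest from the *Nrxn3* median on both scales, that r was 0.77, and within numbers 2 and 3 it was 0.98. The lowest r was −0.59, between *Nlgn1* and *Il1rapl1* (rho = −0.72), and without WT 3 and KO 2 it was −0.65. Of the 36 pairs, 29 (80.6%) had a positive r, and the median was 0.33. Over all pairs of the 14239 genes tested, 49.9% had a positive r, and the median was −0.0015. The 36 pairs are made from 9 genes and are not independent of each other, so this contrast is a description too.

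The pair *Nrxn2* and *Nlgn2* has the most GC-rich transcripts of the 9, with 62.4% and 60.7% GC in the longest transcript. *Lrrtm1* has 54.7%, *Nlgn3* 49.3%, *Nrxn3* 47.5%, *Cntnap2* 44.5%, *Nlgn1* 38.9%, *Lrrtm2* 38.4% and *Il1rapl1* 36.2%. The libraries also differed by GC content over all genes. In the tenth of the genes with the highest GC (1424 genes), the median log2 deviation from the mean over the libraries was −0.076, 0.045 and 0.0036 in WT, −0.089, 0.025 and 0.088 in HET and −0.051, −0.0068 and 0.086 in KO. Library 1 was the lowest in every genotype, and HET library 3 and KO library 3 the highest, as for *Nrxn2* itself. The deviations of *Nrxn2* were larger, with −0.48 in WT library 1, −0.64 in HET library 1, −0.47 in KO library 1, 0.44 in HET library 3 and 0.69 in KO library 3. After the median deviation of each library in each GC decile was subtracted, they were −0.40, −0.55, −0.42, 0.35 and 0.61. The part of GC content in the *Nrxn2* values was not tested.

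**Figure D3:**
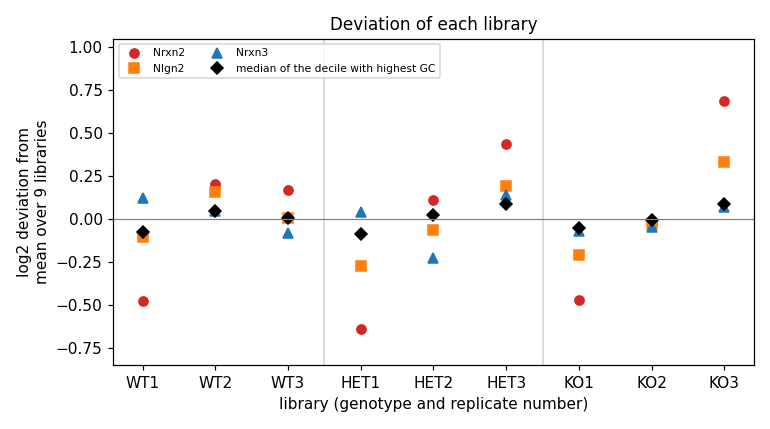
Log2 deviation of each library from the mean over 9 libraries for *Nrxn2*, *Nlgn2* and *Nrxn3*, with the median over the genes of highest GC content as black diamonds. *Nrxn2* runs from −0.64 in HET library 1 to 0.69 in KO library 3, and the black diamonds from −0.089 to 0.088.

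For each adhesion gene, the gene most alike over the 9 libraries was found among the 14238 other genes tested, by Pearson's r of log2(normalized count + 1), as a description. These were *Pcgf2* for *Nrxn2* (r = 0.990), *Dcaf12l1* for *Nlgn2* (0.986) and *Abcg1* for *Cntnap2* (0.969). *Copz2* was most alike to *Lrrtm1* (0.964), *Mbd5* to *Nlgn3* (0.963), *Fam135b* to *Il1rapl1* (0.963) and *Flrt1* to *Nrxn3* (0.962). *Noc2l* was most alike to *Nlgn1* (0.946) and *St6galnac4* to *Lrrtm2* (0.929). Each was picked as the highest of so many values, so no test is given. A like course did not mean a like amplitude: *Pcgf2* ranged from 1095 to 1470 normalized counts, a narrower range in proportion than that of *Nrxn2*.

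Partners of the 9 proteins were taken from 7 lists with 65 genes, of which 63 were in the table and all of these passed the filter. *Cntnap5b* and *Cntnap5c* were not analysed here. At an unadjusted p under 0.05, 0 of 63 partner genes were found in HET against WT (1.11% of all genes tested), in KO against WT (0.822%) and in KO against HET (1.31%), which is near the background. The median log2FC of the partners was −0.036 in HET against WT (23 positive, 40 negative), −0.0065 in KO against WT (29 and 34) and 0.013 in KO against HET (35 and 28). The smallest unadjusted p, of genes named after their values were seen, was 0.089 for *Slitrk2* in HET against WT, 0.14 for *Adgrl2* in KO against WT and 0.084 for *C1ql2* in KO against HET, each with an adjusted p of 0.999 or 1.00 in limma.

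In 4 of 63 partner genes (6.35%) the HET and WT libraries did not overlap, and in all 4 HET was the lower. Over all genes tested that share was 4.45%, so the count is near the background and is not a result about the partners. The 4 were named after their values were seen. They are *Dag1*, which encodes the neurexin ligand dystroglycan, *Clstn3*, a calsyntenin, *Slitrk2*, a ligand of LAR-type phosphatases, and *Khdrbs1*, a splicing factor of neurexin transcripts. *Dag1* had 4112, 3921 and 3696 normalized counts in WT and 3662, 3424 and 3531 in HET. Its log2FC was −0.14 (95% interval −0.32 to 0.034). *Slitrk2* had 953, 1048 and 839 in WT and 774, 831 and 768 in HET, with a log2FC of −0.25 (−0.55 to 0.047). *Clstn3* had 13030, 13040 and 12877 in WT and 12853, 12579 and 11888 in HET, and its WT and HET values nearly touched. In KO against WT 2 of 63 (3.17%, against 4.54% of all genes) did not overlap, *Adgrl3* (higher in KO) and *Slitrk6* (lower), both named after their values were seen. In KO against HET there were 3 of 63 (4.76%, against 4.45%), namely *Dag1* and *Cask*, higher in KO, and *C1ql2*, lower, named in the same way.

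The partner gene with the highest level per kb in each list was named by rule, and levels are means over the 9 libraries. Among membrane ligands of neurexins it was *Clstn1*, a calsyntenin, with 9755 normalized counts per kb (10 genes). Among LAR-type phosphatases and their ligands it was *Lrrc4b* with 2285 (15 genes), and among intracellular scaffolds *Dlg4*, which encodes PSD-95, with 2277 (13 genes). *Cntnap1*, the Caspr of the paranodal junction, led the neurexin and Caspr family with 1922 (4 genes tested), and the potassium channel gene *Kcna1* led the Caspr2 partners with 1517 (4 genes). The splicing factor gene *Khdrbs3* led the regulators with 1032 (6 genes), and *C1ql3* the secreted ligands with 682 (11 genes). Per kb of the longest transcript the same genes led over the 9 libraries, with *Ptprs* (2370), named after its values were seen, close below *Lrrc4b* (2453). In WT that order was turned around, with 2350 for *Ptprs* and 2120 for *Lrrc4b* on this scale. Of these 7 genes, 6 had their highest value in HET library 3 or KO library 3, and *Kcna1* in HET library 1. Over all genes tested, 36.7% had their highest value in either of those libraries. For *Lrrc4b* the HET libraries had 4553, 5683 and 12630 normalized counts and the KO libraries 4831, 5839 and 9343. The HET and KO means thus rested on library 3, while the WT libraries had 5114, 6321 and 5918.

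*C1ql3*, a secreted protein of the complement-related family, had 1642, 1849 and 2071 normalized counts in WT, 1054, 1739 and 1615 in HET and 1533, 1672 and 2395 in KO. Its log2FC was −0.36 in HET against WT (95% interval −0.83 to 0.11) and 0.35 in KO against HET (−0.12 to 0.82). With the replicate number as a block in HET and KO alone, KO against HET had 4 of 63 partner genes (6.35%) at an unadjusted p under 0.05 in limma, all higher in KO. Over all genes tested the share in that fit was 4.95%, so the count is near the background and is not a result about the partners. The 4 were *C1ql3* (0.35), *Cntnap4* (0.22), *Lrrtm4* (0.18) and *Apba1* (0.15, log2FC in each case), with an adjusted p of 0.958 each, and they were named after their values were seen.

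Position in the annotation bears on how counts could be shared. *Lrrtm1* lies within *Ctnna2* and *Lrrtm2* within *Ctnna1*, each on the opposite strand of the host gene. *Lrrtm1* shares 0 exon bases with its host and *Lrrtm2* shares 95. Exons of *Nrxn2* share 682 bases with *Slc22a12* on the opposite strand, which had 3.63 to 24.4 normalized counts. *Nlgn3* shares 3823 exon bases with *Gm21986* on the same strand, so that reads there may be split between them, and *Nlgn1* shares 1229 with *A830092H15Rik* on the opposite strand. *Nrxn2* also shares 207 with *Gm14964* and *Nrxn3* shares 439 with *Gm37980*, both on the opposite strand. None of the last 4 was among the genes of the table used here. The library kit keeps strand, but whether the counting used it is not given in the sources used here.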

How the data were processed

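Striatal poly(A) RNA of 9 mice (3 WT, 3 HET, 3 KO) was sequenced with a stranded kit. The deposited signal is the normalized count per gene, which the authors made with Salmon 0.9.1 on GRCm38 with GC bias correction, tximport and DESeq2 1.19.11 in R 3.6.0, versions being those of the submitters' processing notes. Whole reads were not recovered from these values, and depth in reads is unknown, so the test for normalized values was used. Genotypes and replicate numbers came from the labels, and 0 columns were left unused.

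Log2(normalized count + 1) was fitted with limma 3.58.1 (trend option) in R 4.3.3 over all 9 libraries and 14239 genes, with Benjamini-Hochberg adjustment over all of them and a threshold of 0.05. This log2 scale understates differences of genes with low values. For single values, two-sided exact permutation tests were run as well (smallest p = 0.1). The fit was also run on simulated data, whose outcome is not given here, so nothing is drawn from it. Alternatives were other pseudocounts, filters, normalizations and variance priors, array weights, a replicate block, GC-decile centring, fits without the genotype not compared, and fits without single libraries or pairs of them. Symbols were found for 15457 genes. Coordinates, exon lengths and GC content came from a GENCODE annotation and transcripts of GRCm38. Python 3.11.15, pandas 2.3.3 and matplotlib 3.10.9 were used.

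The members and lists were chosen with earlier results of these data known. Some genes were taken out of the partner and marker lists and are not reported here. Genes named were the members, *Shank3*, partner genes at an unadjusted p under 0.05 (up to 3 per comparison), the partner with the highest level per kb in each list, the gene most alike to each member, the most abundant marker of each list, genes that overlap a member and list genes not analysed; others are said to be named after their values were seen.

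Deviations from the genotype mean were correlated over genes between same-numbered libraries. HET and KO gave r = 0.52, 0.28 and 0.51 for numbers 1, 2 and 3, WT and KO 0.24, −0.22 and 0.024, and WT and HET 0.32, −0.014 and 0.0054. The numbers were therefore taken to pair HET with KO, from the data and not from the labels. WT varied with both at number 1 only, so a pairing of WT by number is not settled.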

Additional observations from a re-analysis of the deposited data

How the results depend on the processing

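In limma, 0 genes passed the adjusted threshold of 0.05 in any of the 3 comparisons under each of the 24 alternatives, and no adhesion gene had an adjusted p under 0.958. Of the 27 log2FC values of the adhesion genes, 9 kept their sign under all 24 alternatives. In size those 9 lay between 0.072 and 0.15 in the main analysis, and the 18 that changed sign between 0.00067 and 0.099, so the sizes overlapped. The cause of the changes was not tested. The filters, no trend, the replicate block without GC-decile centring and fits without the genotype not compared leave a log2FC as it was. So does leaving out a library of that genotype, so the signs were tested by fewer than 24 alternatives. With an unknown read depth, the spread between 3 mice limits what could be detected. GC-decile centring, the block in the compared genotypes alone or with GC-decile centring, the pairs of HET and KO libraries for the log2 ratio of *Nlgn1* to *Nlgn2*, and the fit without the third WT and the third KO libraries were chosen after seeing the data.

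Values that changed sign were as follows. With equal library totals, *Nrxn2* had −0.0031 in HET against WT and *Nrxn3* 0.011 in KO against HET. With quantile normalization, *Nrxn2* had −0.019 in HET against WT, *Nlgn1* −0.0060 in KO against WT and *Nrxn3* 0.0028 in KO against HET. With array weights, the values were −0.21 for *Nrxn2*, −0.048 for *Lrrtm1* and −0.040 for *Cntnap2* in HET against WT, −0.15 for *Nrxn2*, −0.079 for *Nlgn1* and −0.12 for *Nlgn2* in KO against WT, and 0.0082 for *Nrxn3* and 0.033 for *Cntnap2* in KO against HET. Without the third HET and the third KO libraries, they were −0.23 for *Nrxn2*, −0.020 for *Lrrtm1* and −0.041 for *Cntnap2* in HET against WT. In KO against WT they were −0.21 for *Nrxn2*, −0.071 for *Nlgn1*, −0.14 for *Nlgn2*, 0.042 for *Cntnap2* and 0.067 for the log2 ratio of *Nlgn1* to *Nlgn2*, and in KO against HET 0.035 for *Nrxn3* and 0.084 for *Cntnap2*. Without the third WT and the third KO libraries, they were −0.037 for *Lrrtm1* and −0.14 for *Cntnap2* in HET against WT, −0.11 for *Nrxn2*, −0.15 for *Nlgn1* and −0.14 for *Nlgn2* in KO against WT, and −0.22 for *Nrxn2*, −0.071 for *Nlgn2* and 0.025 for *Cntnap2* in KO against HET. With GC-decile centring they were −0.014 for *Nrxn2* in HET against WT, and −0.0038 for *Nlgn2* and 0.0062 for *Lrrtm2* in KO against WT.

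Leaving out each library in turn, values that changed sign in HET against WT ranged from −0.23 to 0.31 for *Nrxn2*, −0.12 to 0.060 for *Nrxn3*, −0.19 to 0.045 for *Nlgn2*, −0.037 to 0.17 for *Lrrtm1* and −0.14 to 0.13 for *Cntnap2*. In KO against WT they ranged from −0.21 to 0.37 for *Nrxn2*, −0.10 to 0.00096 for *Nrxn3*, −0.072 to 0.069 for *Nlgn1*, −0.14 to 0.14 for *Nlgn2* and −0.11 to 0.037 for *Nlgn3*. The ranges were −0.16 to 0.035 for *Lrrtm1*, −0.086 to 0.032 for *Lrrtm2*, −0.17 to 0.068 for *Cntnap2*, −0.056 to 0.086 for *Il1rapl1* and −0.11 to 0.067 for the log2 ratio of *Nlgn1* to *Nlgn2*. In KO against HET they were −0.22 to 0.37 for *Nrxn2*, −0.11 to 0.077 for *Nrxn3*, −0.071 to 0.20 for *Nlgn2* and −0.15 to 0.025 for *Cntnap2*.

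The number of adhesion genes at an unadjusted p under 0.05 was 0 in each comparison and alternative, except 2 in HET against WT without the third HET and the third KO libraries. The number of partner genes, 0 in the main analysis, was in HET against WT 1 with no trend, 2 with array weights and 3 without the third HET and the third KO libraries. It was 2 without the third WT and the third KO libraries, and 2 with the replicate block, alone, in the compared genotypes alone or with GC-decile centring. In KO against WT it was 1 with array weights, without the third WT and the third KO libraries, and with the replicate block and GC-decile centring. In KO against HET it was 1 with no trend, 1 with the replicate block alone or with GC-decile centring, and 4 with the block in the compared genotypes alone. Leaving out each library, it ranged from 0 to 2 in HET against WT (2 without HET library 2, 1 without WT library 3 or KO library 3) and from 0 to 1 in KO against HET (1 without HET library 2).

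Over all genes tested, the number at an unadjusted p under 0.05 was 158 in HET against WT, 117 in KO against WT and 186 in KO against HET. With the replicate block it was 365, 310 and 318, with block and GC-decile centring 360, 304 and 324, and with the block in the compared genotypes alone 225, 253 and 705. Same-numbered WT libraries varied with HET and KO at number 1 (r = 0.32 and 0.24), but r was 0.024 or lower at numbers 2 and 3. Whether WT pairs by number is not settled, so tests against WT with the block are given only as counts. The block left each log2FC as it was without it, so with the block and GC-decile centring the same values changed sign as with GC-decile centring alone. Blocking changed no adjusted call. Array weights gave 395 in KO against WT, no trend 176 and a minimum of 50 gave 76. Without the third HET and the third KO libraries it was 275 in HET against WT and 219 in KO against WT, and without the third WT and the third KO libraries 354 and 339. Leaving out each library it ranged from 119 to 394 in HET against WT (394 without HET library 2, 289 without HET library 1, 268 without WT library 3), from 72 to 292 in KO against WT (72 without WT library 2, 292 without WT library 3) and from 141 to 303 in KO against HET (303 without HET library 2, 288 without HET library 3).

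In the order of levels, 7 of the 9 adhesion genes kept their place per kb of the longest transcript, with *Nrxn2* and *Nlgn2* exchanged. Per normalized count, with no length scaling, 2 of 9 kept that place, which follows from the lengths of the genes.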
